A study of Mus musculus with 14 samples.

Results

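The genes described here are 10 genes of mast cells, basophils and eosinophils, chosen by their symbols with earlier results of these data known: Cpa3, Gzmb and Tpsb2 (granule enzymes of mast cells), Fcer1a and Ms4a2 (subunits of the high-affinity IgE receptor), Mcpt8 and Prss34 (granule proteases of basophils), Hdc (the enzyme that makes histamine), and Prg2 and Epx (granule proteins of eosinophils). All 10 were found among the 55487 gene identifiers of the count tables. RNA was sequenced from LSK cells (Lin-Sca1+c-kit+, the fraction that holds the stem cells) and LK cells (Lin-c-kit+, labelled MP(LK), the myeloid progenitor fraction) of mouse bone marrow. The mice were lethally irradiated C57BL/6 recipients of marrow from Mx1Cre; Jak2VF/+ animals, in which pI-pC induced the heterozygous Jak2V617F allele, so that PBS-treated and IL-1β-treated mice carried the same mutation. From 4 weeks after transplantation they received PBS or IL-1β at 0.5 µg per dose, 3 doses per week, for 16 weeks. The reporting summary of the study gives an age of 6 to 8 weeks for mice used in experiments, and the methods state matching for age and sex. The age of the mice at sorting, after the 16 weeks of doses, is not stated. The methods do not state that the sorted cells were gated on donor origin, and Mx1Cre acts in interferon-responsive cells rather than in 1 lineage. There were 3 PBS and 2 IL-1β libraries of each population. Mesenchymal stromal cells (MSC) grown from marrow of wild-type C57BL/6 mice for 21 days, and given PBS (2 libraries) or IL-1β at 5 ng/ml (2 libraries) for 72 h, were set beside them.

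Mast cells, basophils and eosinophils are granulocytes of allergic and anti-parasite responses. Basophils and mast cells bind IgE through the high-affinity receptor, whose alpha chain (Fcer1a) holds the antibody and whose beta chain (Ms4a2) strengthens the signal, and they release histamine and proteases from granules when the receptor is cross-linked. Eosinophils store major basic protein (Prg2) and eosinophil peroxidase (Epx), which are made early, at the promyelocyte stage, before the granules mature. Early progenitors of these lineages are found among Lin-c-kit+ marrow cells, and the lineage antibodies of the sort include none against the IgE receptor. In such bulk samples more cells of a type and more RNA per cell cannot be told apart.

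The deposited values are read pairs counted per gene. Depth was 12172400 to 16271408 counted read pairs in the PBS libraries of LSK cells and 12804883 to 18544346 in those of LK cells. In the IL-1β libraries it was 8641124 and 4393233 for LSK and 7652483 and 6367352 for LK cells. Depth and treatment cannot be told apart, since the IL-1β libraries of sorted cells all had fewer read pairs than any PBS library of the same cells. Levels are given as CPM, the customary depth-scaled counts, with TMM factors set over the 10 libraries of sorted cells, and as FPKM, the same per kilobase of gene, wherever different genes are compared. A gene was called when edgeR's quasi-likelihood test gave a Benjamini-Hochberg adjusted p under 0.05 and its log2 fold change exceeded 0.5 in either direction. Nothing in the labels says that libraries of a group came from separate mice, so the p-values measure the spread between these libraries only.

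The genes lie apart on GRCm38, except for 2 close pairs. Mcpt8 (chr14:56082166-56085273) and Gzmb (chr14:56258838-56262260), both on the minus strand, belong to the chymase and granzyme cluster of chromosome 14. Prss34 (chr17:25298394-25300165) and Tpsb2 (chr17:25366305-25369098), both on the plus strand, belong to the tryptase cluster of chromosome 17. Fcer1a (chr1:173221284-173227214), Hdc (chr2:126593667-126619299), Cpa3 (chr3:20215620-20242181), Epx (chr11:87864000-87875536) and Ms4a2 (chr19:11615523-11623719) are on the minus strand. Prg2 (chr2:84980461-84983632) is on the plus strand. The protease families hold near-identical copies, and read pairs that matched several places were not counted by the stated settings, so that levels of Mcpt8, Prss34, Gzmb and Tpsb2 are uncertain to that extent.

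The 250 bases before the RefSeq start site were examined for GATA words (AGATAA or AGATAG, and likewise TGATAA or TGATAG, on either strand), because GATA factors are long known regulators of mast cell and basophil genes. Windows were found for 8 of the 10 genes, not for Tpsb2 and Prg2. A GATA word was present in 5 of them (Cpa3, Fcer1a, Ms4a2, Prss34 and Hdc) and not in those of Mcpt8, Gzmb and Epx, against 26.5% of 32851 windows of the same length. These reference windows left out a chromosome that holds no member. The RefSeq start of Hdc (126618678) differs from that of the gene as counted (126619299), so its window lies inside the counted gene. The starts of Mcpt8, Gzmb and Fcer1a also differ, by fewer bases. The STAT word TTCNNNGAA was in none of the 8 windows and in 7.02% of all. The E-box words CACATG or CACGTG, which overlap no GATA word here, were in the windows of Fcer1a and Prss34, and in 17.6% of all. Printed here are the windows of 4 genes that hold the word, one or more for each of the mast cell, IgE receptor and basophil roles, and of Epx, an eosinophil gene without it. They are read 5′ to 3′ along the gene, from RefSeq on GRCm38.p6, with the GATA words in capitals (TTATCT where the word is on the other strand). The windows are chr3:20242182-20242431 (minus) for Cpa3, chr1:173227230-173227479 (minus) for Fcer1a, chr19:11623720-11623969 (minus) for Ms4a2, chr17:25298144-25298393 (plus) for Prss34 and chr11:87875537-87875786 (minus) for Epx.
Cpa3: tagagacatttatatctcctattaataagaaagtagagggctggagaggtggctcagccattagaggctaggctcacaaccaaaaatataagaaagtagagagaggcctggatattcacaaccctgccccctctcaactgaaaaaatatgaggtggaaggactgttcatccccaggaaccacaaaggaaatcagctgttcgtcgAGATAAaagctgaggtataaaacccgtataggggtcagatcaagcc
Fcer1a: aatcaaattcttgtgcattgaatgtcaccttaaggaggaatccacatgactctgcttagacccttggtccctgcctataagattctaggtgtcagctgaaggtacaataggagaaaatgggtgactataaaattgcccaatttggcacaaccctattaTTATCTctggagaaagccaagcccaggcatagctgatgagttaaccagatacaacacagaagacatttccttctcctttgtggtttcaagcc
Ms4a2: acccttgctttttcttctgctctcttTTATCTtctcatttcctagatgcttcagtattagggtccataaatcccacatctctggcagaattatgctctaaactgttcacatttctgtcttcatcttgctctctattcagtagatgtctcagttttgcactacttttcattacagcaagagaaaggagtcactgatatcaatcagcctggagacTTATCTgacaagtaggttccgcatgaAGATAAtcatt
Prss34: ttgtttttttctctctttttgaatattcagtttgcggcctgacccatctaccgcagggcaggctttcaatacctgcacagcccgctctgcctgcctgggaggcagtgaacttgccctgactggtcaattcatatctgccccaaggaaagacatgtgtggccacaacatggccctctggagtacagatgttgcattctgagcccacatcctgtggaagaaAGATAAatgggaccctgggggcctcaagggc
Epx: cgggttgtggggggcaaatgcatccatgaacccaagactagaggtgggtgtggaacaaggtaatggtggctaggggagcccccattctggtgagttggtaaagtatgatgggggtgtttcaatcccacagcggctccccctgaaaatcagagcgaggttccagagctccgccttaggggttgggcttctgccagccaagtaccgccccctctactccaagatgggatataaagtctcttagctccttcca
The word nearest to the start site ended 41 bases before it in Cpa3, 87 in Fcer1a, 6 in Ms4a2 and 26 in Prss34. Ms4a2 held 3 such words and the others 1 each. A match is a description of letters only.

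All 10 genes were detected in LSK cells and 9 in LK cells, at levels that differed widely between genes. Per length, Prg2 led in LK cells with PBS, at 141 ± 78.1 FPKM (SD, n = 3), followed by Prss34 at 71.5 ± 70.2, Mcpt8 at 48.0 ± 36.6 and Cpa3 at 40.2 ± 4.72 FPKM. These 4 genes could not be ordered beyond their spread, apart from Prg2 over Cpa3. In LSK cells with PBS the order was Prss34 at 27.2 ± 3.31, Cpa3 at 24.0 ± 6.24 and Mcpt8 at 22.7 ± 4.90 FPKM (SD, n = 3), again within their spread, and Epx was last at 0.164 ± 0.218 FPKM. With IL-1β, Cpa3 led in LSK cells (91.5 ± 27.2 FPKM, SD, n = 2), and in LK cells Prg2 (1257 ± 419 FPKM) and Prss34 (802 ± 362 FPKM) led. The summed level of the 10 genes was 83.7 to 110 FPKM in LSK cells with PBS, compared with 335 and 279 with IL-1β. In LK cells it was 187 to 484 FPKM with PBS, as against 3586 and 2073 with IL-1β, so that the groups did not overlap in either population.

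**Figure D1:**
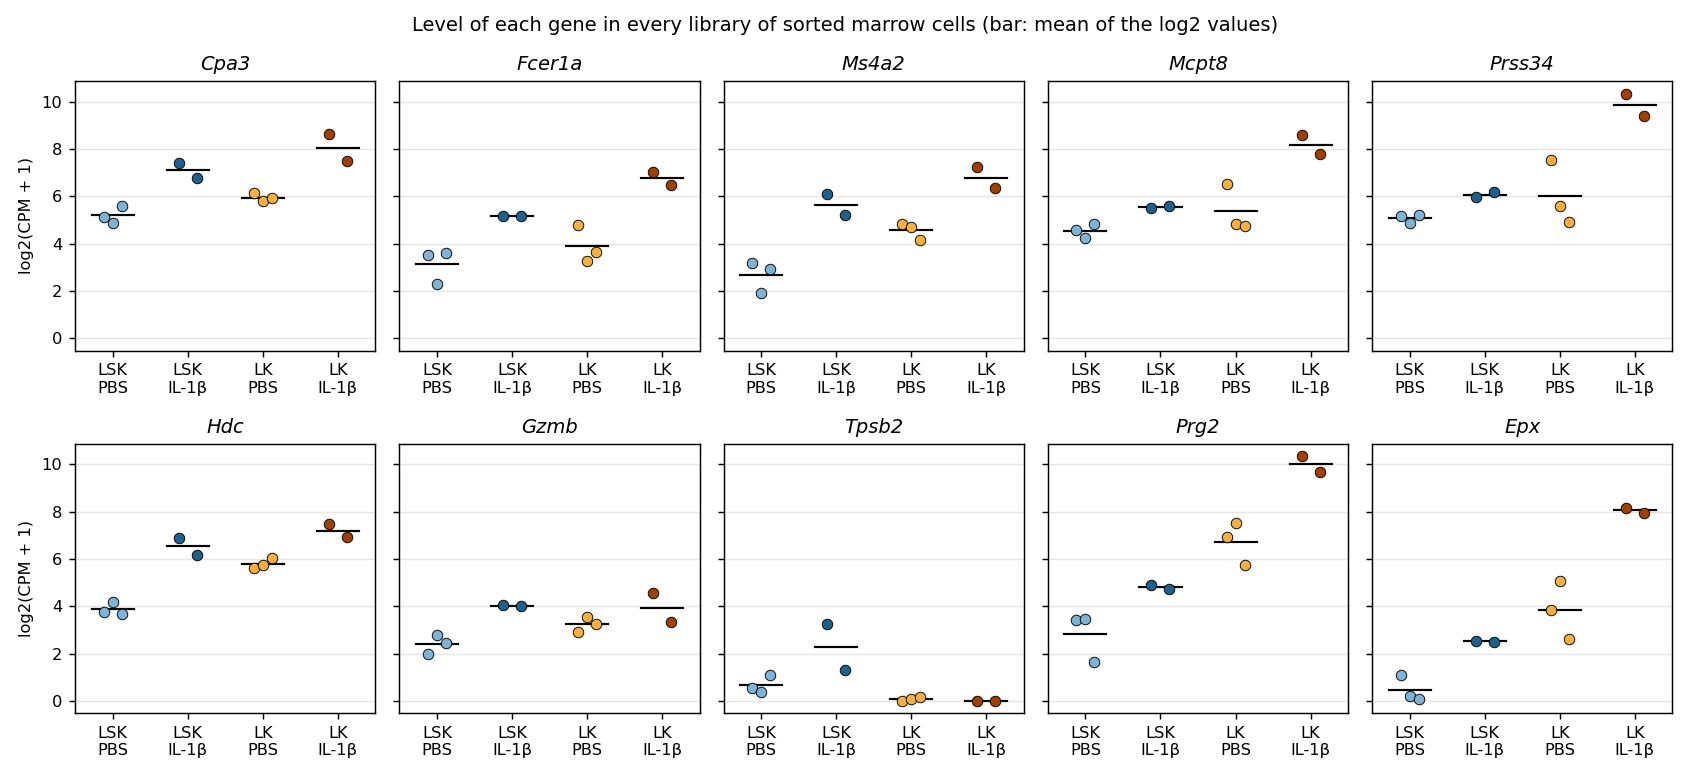
Level of each of the 10 genes in log2(CPM + 1), with 1 point per library and a bar at the mean of the log2 values, for LSK and LK cells with PBS (3 libraries) or IL-1β (2 libraries). The IL-1β points lie above all PBS points of the same population, except in LK cells for Gzmb and for Tpsb2, which had at most 2 counts in any LK library.

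With IL-1β in LSK cells, the IgE receptor beta chain Ms4a2, the histamine-forming enzyme Hdc and the mast cell carboxypeptidase Cpa3 rose, by 9.13, 7.07 and 3.91 times. Both IgE receptor chains, Cpa3 and Hdc rose in LK cells, Fcer1a by 7.12, Ms4a2 by 4.98, Cpa3 by 4.74 and Hdc by 2.68 times. The other members, including the eosinophil and basophil granule genes, had fold changes from 1.84 to 15.1 that did not pass edgeR's test. DESeq2 called 9 of 10 members in LSK cells, all but Tpsb2, and 8 of 9 in LK cells. With limma-voom 2 and 5 were called. The number of all genes called moved with the setting too, in LSK cells to as many as 1228. In LSK cells 3 of 10 members were called, all higher, where 0.632% of 13132 genes were called and 0.32% were called higher. In LK cells 4 of the 9 members tested were called, all higher, where 9.34% of 12835 genes were called and 6.77% were called higher. The median log2 fold change of the members was 2.02 in LSK and 2.66 in LK cells, beside -0.06 and -0.03 over all genes tested. For 10 of 10 members in LSK and 8 of 9 in LK cells, every IL-1β library stood above every PBS library, beside 16.7% and 23.4% of all genes tested. Because the members were chosen with earlier results of these data known, these shares describe the list and do not test it.

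**Figure D2:**
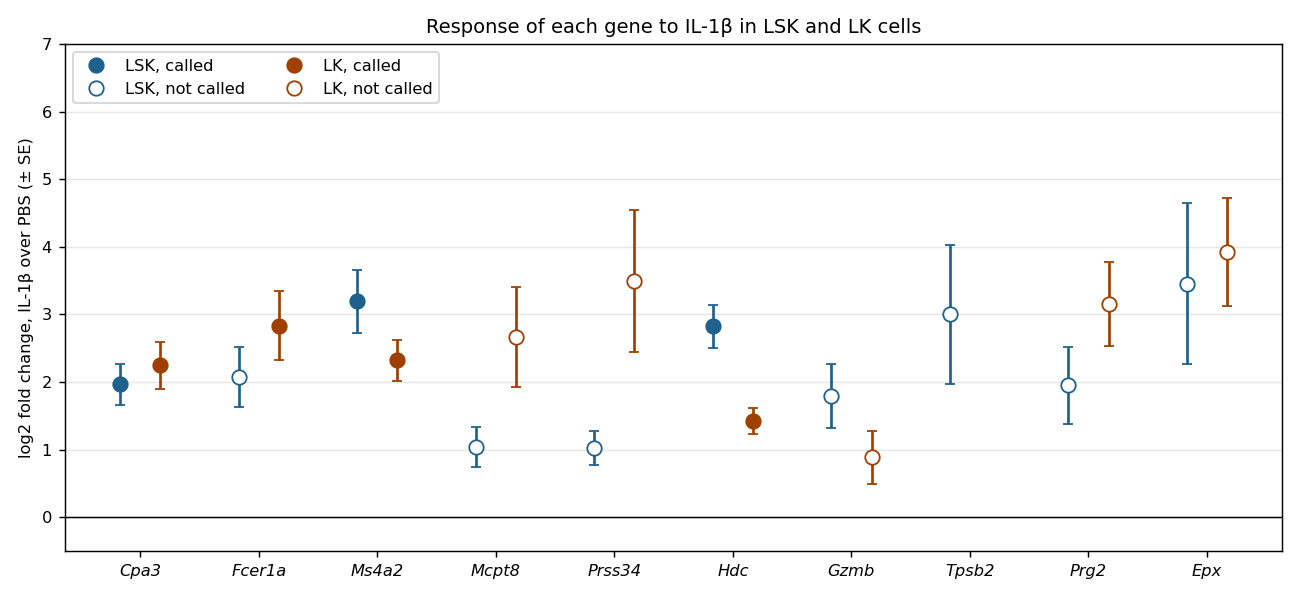
Log2 fold change of each gene with IL-1β over PBS, with its standard error, in LSK cells (blue) and LK cells (brown), filled where called by edgeR and open where not. All 19 values are above 0, and the largest, that of Epx in LK cells at 3.92, has a standard error of 0.80 and is open.

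Of the IgE receptor chains, Ms4a2 was called with IL-1β in both populations and Fcer1a in LK cells. Ms4a2 stood at 8.10, 2.79 and 6.64 CPM in the LSK libraries with PBS, and at 67.6 and 35.5 CPM with IL-1β. In LK libraries it stood at 27.2, 25.0 and 16.8 CPM, and at 149 and 79.5 CPM with IL-1β. Every IL-1β library exceeded every PBS library of its population, and the lowest IL-1β value in LSK cells was above the highest PBS value in LK cells. The log2 fold change was 3.19 with a standard error of 0.47 in LSK (edgeR adjusted p = 0.0210) and 2.32 with 0.31 in LK cells (adjusted p = 0.00897). Fcer1a, the antibody-binding chain, stood at 10.45, 3.95 and 11.01 CPM with PBS and 34.8 and 34.6 with IL-1β in LSK cells. In LK cells it stood at 26.3, 8.56 and 11.7 CPM and at 130 and 87.7 with IL-1β. The groups did not overlap in either population, and the PBS libraries of each spread widely. Its log2 fold change of 2.83 in LK cells (standard error 0.51) was called (adjusted p = 0.0341), and that of 2.07 in LSK cells (standard error 0.44) was not (adjusted p = 0.0720). Single libraries decided some of these calls. Without PBS replicate 2 or 3, Fcer1a was called in LSK cells (adjusted p = 0.0324 and 0.0266), and it was not called in LK cells without PBS replicate 3 (0.172) or either IL-1β replicate (0.206 and 0.0938). Ms4a2 was not called in LSK cells without either IL-1β replicate (0.142 each) or in LK cells without IL-1β replicate 1 (0.0592). The gamma chain Fcer1g, which other Fc receptors share, had log2 fold changes of -0.48 in LSK and 0.26 in LK cells, with adjusted p = 0.587 and 0.593.

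Hdc, which makes histamine from histidine, had the lowest adjusted p among the members in both populations. It stood at 12.7, 16.97 and 11.6 CPM with PBS in LSK cells, and at 117 and 71.6 with IL-1β. In LK cells it stood at 47.6, 52.1 and 65.4 CPM, and at 175 and 120 with IL-1β. The PBS libraries of each population lay close together and far under the IL-1β libraries. The log2 fold change was 2.82 in LSK (standard error 0.31, edgeR adjusted p = 0.00874) and 1.42 in LK cells (standard error 0.19, adjusted p = 0.00562). The call was lost in LSK cells without IL-1β replicate 1 (adjusted p = 0.138) or 2 (0.0566), and in LK cells without IL-1β replicate 1 (0.0807). Of the other genes of histamine handling, 4 of 6 were tested in each population and none was called by edgeR, DESeq2 or limma-voom, with 1 at an unadjusted p under 0.05 in each. They include Slc18a2, the vesicle transporter that loads histamine into granules (log2 fold change -0.54 in LSK and 0.73 in LK cells), and Hnmt, which breaks histamine down (-0.96 and 0.75).

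Of the mast cell enzymes, Cpa3 was called in both populations, and Gzmb and Tpsb2 in neither. Cpa3, a carboxypeptidase of mast cell granules that basophil progenitors also express, stood at 34.2, 28.4 and 46.9 CPM with PBS and 168 and 110 with IL-1β in LSK cells. In LK cells it stood at 68.8, 54.9 and 59.1 CPM and at 399 and 176 with IL-1β. All IL-1β libraries were above all PBS libraries, with log2 fold changes of 1.97 in LSK (standard error 0.30, edgeR adjusted p = 0.0255) and 2.24 in LK cells (standard error 0.34, adjusted p = 0.0184). The call in LSK cells was lost without either IL-1β replicate (adjusted p = 0.140 and 0.142). That in LK cells was lost without PBS replicate 1, 2 or 3 (0.0551, 0.0724 and 0.145). Gzmb, granzyme B, made by mast cells and by killer lymphocytes, stood at 3.03, 5.97 and 4.54 CPM with PBS and 15.7 and 14.9 with IL-1β in LSK cells. In LK cells it stood at 6.55, 10.8 and 8.55 CPM, and at 22.7 and 9.01 with IL-1β, where the groups overlapped. Its log2 fold changes of 1.80 in LSK (adjusted p = 0.110) and 0.88 in LK cells (adjusted p = 0.216) were not called, although that in LSK cells was called without PBS replicate 2 (0.0412). Tpsb2, the beta tryptase of connective tissue mast cells, was seen in LSK cells, at 6, 4 and 20 counts with PBS and 73 and 6 with IL-1β. These are 0.454, 0.310 and 1.16 CPM and 8.64 and 1.47 CPM, so that IL-1β replicate 1 stood apart. The log2 fold change of 3.00 (standard error 1.03) was not called (adjusted p = 0.184) and was 1.19 without that library. In LK libraries Tpsb2 had 0, 1 and 2 counts with PBS and 0 and 0 with IL-1β, and it was not tested.

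The basophil proteases were among the most abundant members in LK cells with IL-1β, but their differences from PBS did not pass edgeR's test. DESeq2 called 8 of the 9 members tested in LK cells. Prss34, mast cell protease 11, stood at 186, 47.2 and 29.1 CPM with PBS in LK cells, and at 1291 and 666 with IL-1β. Mcpt8, mast cell protease 8, a marker of mouse basophils, stood at 89.99, 27.4 and 26.2 CPM, and at 382 and 218 with IL-1β. Both genes had their highest PBS value in PBS replicate 1, which was still under the lower IL-1β library. The log2 fold changes were 3.495 (standard error 1.05, edgeR adjusted p = 0.165) and 2.66 (standard error 0.74, adjusted p = 0.135). Without PBS replicate 1 they were 4.68 and 3.49 and both genes were called (adjusted p = 0.0153 and 0.00592). In LSK cells Prss34 stood at 34.7, 28.7 and 36.3 CPM with PBS and 60.9 and 70.8 with IL-1β. Mcpt8 stood at 22.9, 17.7 and 27.4 CPM and at 44.1 and 46.8 with IL-1β. The log2 fold changes there were the lowest of the members, 1.02 and 1.04, with the groups apart and adjusted p = 0.0962 and 0.127.

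Of the eosinophil granule genes, Epx had the largest fold change of the members in both populations, and neither gene passed edgeR's test. DESeq2 called 9 of 10 members in LSK cells and 8 of 9 in LK cells. Prg2, major basic protein, stood at 120, 183 and 52.2 CPM with PBS in LK cells, and at 1301 and 805 with IL-1β. Epx, eosinophil peroxidase, stood at 13.6, 32.6 and 5.17 CPM, and at 283 and 246 with IL-1β. For both genes PBS replicate 2 was highest and PBS replicate 3 lowest, and both IL-1β libraries were above all of them. The log2 fold changes were 3.15 for Prg2 (standard error 0.62, edgeR adjusted p = 0.0641) and 3.92 for Epx (standard error 0.80, adjusted p = 0.0730). Prg2 was called without PBS replicate 3 (adjusted p = 0.0271), and Epx without PBS replicate 2 (0.0250). In LSK cells Prg2 stood at 9.85, 9.92 and 2.15 CPM with PBS and 28.8 and 25.7 with IL-1β (log2 fold change 1.95, adjusted p = 0.137). Epx had 15, 2 and 1 counts in the LSK libraries with PBS and 41 and 19 with IL-1β, or 1.14, 0.155 and 0.0582 CPM and 4.85 and 4.66 CPM. Its log2 fold change of 3.45 (standard error 1.19, adjusted p = 0.185) rests on these few counts.

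The make-up of the summed level differed between the populations. The eosinophil genes held 2.36% to 14.2% of the summed FPKM in LSK cells with PBS and 30.7% to 63.0% in LK cells with PBS. The basophil proteases held 49.2% to 52.1% in LSK cells with PBS, 28.1% and 37.6% in LSK cells with IL-1β, and 40.2% and 36.9% in LK cells with IL-1β. In LK cells with PBS the 3 libraries differed. Replicate 1 was mostly basophil proteases (50.03%), replicate 2 mostly eosinophil genes (63.0%), and replicate 3 lay between (26.8% and 34.3%). The mast cell enzymes held 24.0% to 31.7% in LSK cells with PBS compared with 37.99% and 29.9% after IL-1β. Their share in the LK libraries was 10.3%, 11.9% and 24.0% with PBS, compared with 7.77% and 5.91% after IL-1β.

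**Figure D3:**
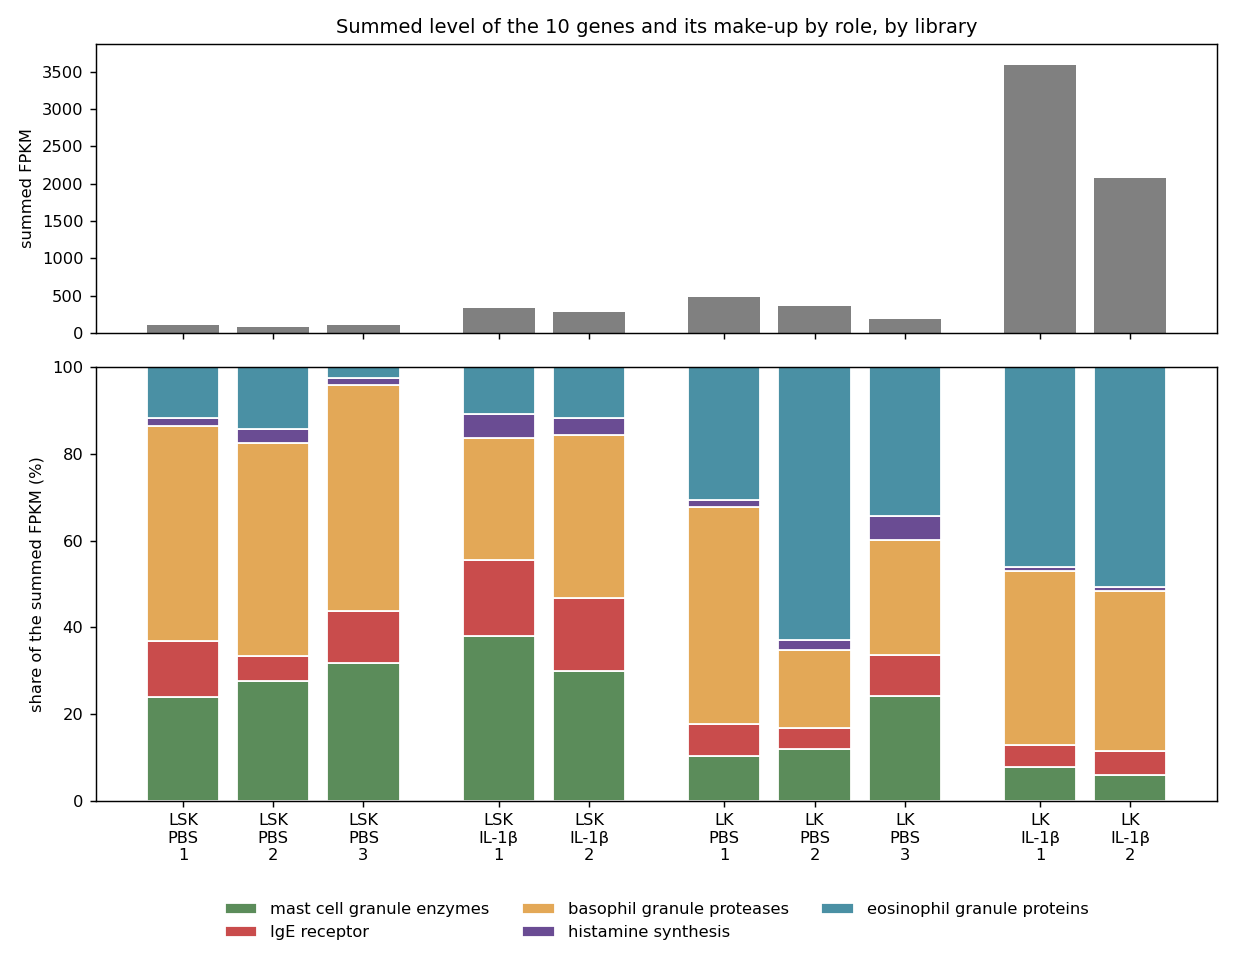
Summed FPKM of the 10 genes in each library (top, linear axis from 0) and the share of that sum in percent by role (bottom), for 10 libraries of LSK and LK cells. The sums of the LK libraries with IL-1β (3586 and 2073) are the tallest, and the eosinophil and basophil shares fill most of each LK bar.

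LK cells were compared with LSK cells to place the genes in the progenitor hierarchy. With PBS, Epx (39.8 times), Prg2 (16.4 times), Hdc (3.999 times) and Ms4a2 (3.92 times) were higher in LK cells, and no member was called lower. Thus 4 of 10 members were called, where 31.8% of 13839 genes were called and 12.4% were called higher. The log2 fold changes were 5.31 for Epx (standard error 0.83, edgeR adjusted p = 0.000975), 4.04 for Prg2 (0.59, 0.000637), 1.9997 for Hdc (0.25, 0.000155) and 1.97 for Ms4a2 (0.39, 0.00274). Not called were Cpa3 (0.74), Fcer1a (0.86), Mcpt8 (1.07), Prss34 (1.39) and Gzmb (0.94), with adjusted p from 0.0689 to 0.146. With the replicate number as a block, which the libraries of the populations share, 7 members were called higher, Cpa3 (adjusted p = 0.00987), Fcer1a (0.0280) and Gzmb (0.0489) being added. Leaving out single libraries added Gzmb (without LSK replicate 2, 0.0417), Cpa3 (without LSK replicate 3, 0.0384), Mcpt8 (without LK replicate 2, 0.0420, or 3, 0.0310) or Prss34 (without LK replicate 3, 0.0128). Tpsb2 went the other way. Its mean of 0.643 CPM in LSK cells with PBS was at least 3.17-fold higher than 0.203 CPM, the level of 3 counts per library in LK cells. The single LSK libraries stood at 0.454, 0.310 and 1.16 CPM, so the bound holds for the mean only. Tpsb2 was not called there (adjusted p = 0.0561), though it was called lower in LK cells without LSK replicate 2.

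With IL-1β the populations stood in the same order as with PBS for 9 of 10 members, Gzmb being too close to order, and among the genes higher in LK cells the largest differences were again those of the eosinophil genes. Epx, with a log2 fold change of 5.79 and a standard error of 0.88 (edgeR adjusted p = 0.00617), and Prg2 (5.27, 0.75, 0.00502) were called higher in LK cells. So were both basophil proteases, Prss34 (3.90, 0.79, 0.0257) and Mcpt8 (2.72, 0.54, 0.0151). Tpsb2 was called lower in LK cells (adjusted p = 0.0357), at a mean of 5.05 CPM in LSK cells and 0 counts in LK cells. That mean was at least 11.5-fold higher than 0.440 CPM, the level of 3 counts per library in LK cells. It rests on LSK replicate 1, since the 2 LSK libraries stood at 8.64 and 1.47 CPM. In all, 5 of 10 members were called, where 4.4% of 13839 genes were called, 2.27% higher and 2.13% lower (314 and 295 genes, or 247 and 394 with upper-quartile factors). Hdc (0.64), Ms4a2 (1.14), Cpa3 (1.05) and Fcer1a (1.65) lay higher in LK cells without being called (adjusted p from 0.0937 to 0.226). Gzmb differed by 0.05, and its sign turned under other settings. With the replicate block Cpa3 (0.0342) and Fcer1a (0.00806) were called as well. Prg2 was called whichever of the 4 IL-1β libraries was left out. Without LSK replicate 1 it was the only member called, the adjusted p of Mcpt8, Prss34 and Epx being 0.0927, 0.123 and 0.0535. Without LSK replicate 2 these were 0.102, 0.133 and 0.0541. Without LK replicate 1, Mcpt8 (0.106) and Prss34 (0.121) lost the call, and without LK replicate 2, Prss34 (0.0798). Of the 4 fits with an IL-1β library left out, Tpsb2 was called only in that without LSK replicate 2.

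Over the 4 groups, 9 of the 10 genes were lowest in LSK cells with PBS and highest in LK cells with IL-1β. They differed in the order between. Cpa3, Fcer1a, Ms4a2, Hdc and Gzmb stood higher in LSK cells with IL-1β than in LK cells with PBS, and the libraries of these 2 groups did not overlap. Prg2 and Epx stood higher in LK cells with PBS than in LSK cells with IL-1β, also without overlap. Mcpt8 and Prss34 lay alike in these 2 groups, at 47.9 and 87.3 CPM in LK cells with PBS and 45.5 and 65.9 in LSK cells with IL-1β, where the libraries overlapped. Fcer1a, Mcpt8 and Prss34 overlapped between LSK and LK cells with PBS, and Gzmb between LSK and LK cells with IL-1β.

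Whether the response differed between the populations was tested as an interaction over the 10 libraries. None of the 10 members was called by edgeR, where 0.0289% of 13839 genes were called. At an unadjusted p under 0.05 there were 3 members, 2 of them larger and 1 smaller in LK cells, beside 9.53% and 4.65% of all genes, DESeq2 called 1, Hdc, and limma-voom none. The response of Hdc was smaller in LK cells by 1.36 on the log2 scale (standard error 0.38, unadjusted p = 0.00346, adjusted p = 0.179). Those of Prss34 and Mcpt8 were larger in LK cells, by 2.51 (standard error 0.93, adjusted p = 0.284) and 1.65 (0.66, 0.301). Without LK PBS replicate 1, the difference of Prss34 was 3.69 and was called (adjusted p = 0.0344).

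The members were also compared with each other across the 10 libraries of sorted cells, as a description of libraries that share treatment, population and depth. Mcpt8 and Prss34 were the most alike (Pearson r = 0.99, n = 10 libraries, log2 CPM at prior count 2), then Prg2 and Epx (r = 0.98). For the 36 pairs without Tpsb2 the median r was 0.83 and the lowest 0.53, between Prss34 and Gzmb. Tpsb2 had r from -0.61 with Prg2 to 0.08 with Gzmb. Among other genes, the 3 most like Epx included Prg3 (r = 0.98), a second major basic protein of eosinophils. The 3 most like Cpa3 included Cyp11a1 (0.96), and those most like Tpsb2 included the mast cell chymase Cma1 (0.91). The genes most like the mean of the members were not all of these lineages. The 10 highest, with r from 0.97 to 0.95, included S100a8 and S100a9, neutrophil genes listed here with the granule markers, and Rpn2, Ero1l, Tent5a, Dgat2, Gda and Pgd.

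**Figure D4:**
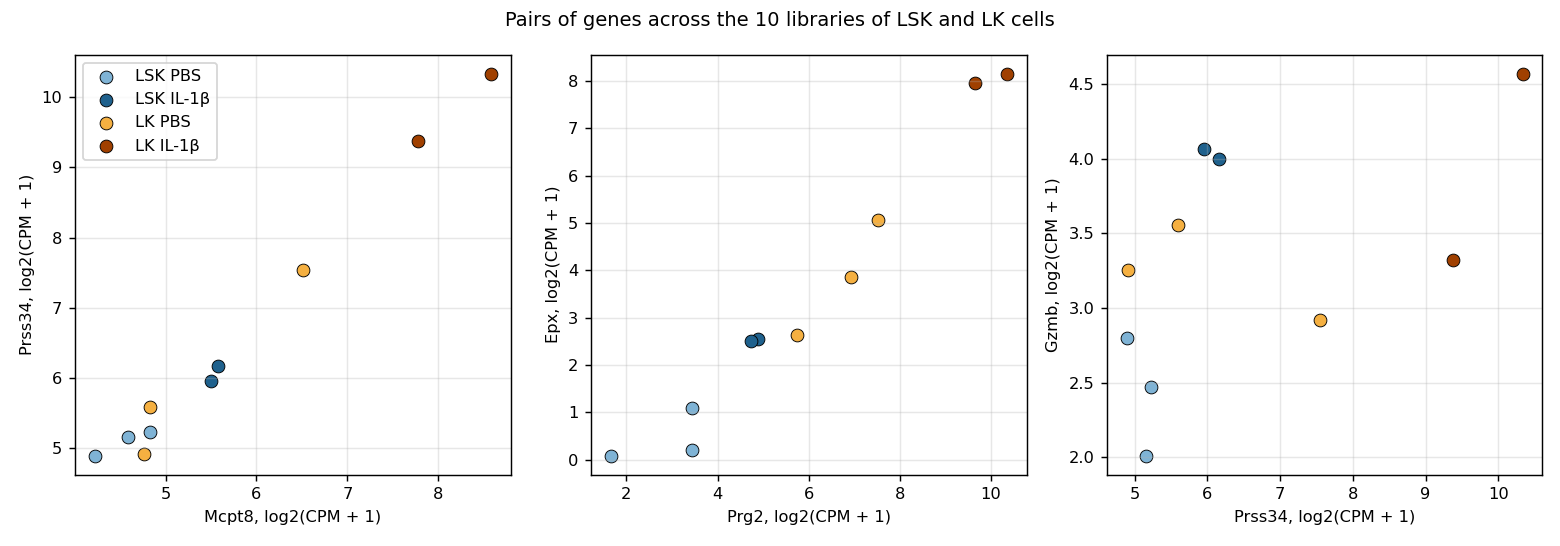
Levels in log2(CPM + 1) of 3 pairs of members across 10 libraries of LSK and LK cells, colored by group. Prss34 follows Mcpt8 (r = 0.99) and Epx follows Prg2 (r = 0.98) over the whole range, whereas Gzmb and Prss34 (r = 0.53) are the least alike of the pairs without Tpsb2.

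Some of the other genes listed for the 3 lineages rose with IL-1β in LK cells, and none was called lower. Of the tested mast cell, basophil and eosinophil genes, 9 of 11, 10 of 12 and 9 of 10 had a log2 fold change above 0. Over all 12835 genes tested in LK cells the median was -0.03, 6.77% were called higher and 9.34% were called in either direction. Some genes stand in more than 1 of the lists, among them Ctsg, Cebpe, Il3ra and Il5ra, so the counts of different lists are not independent. Others had lower means with IL-1β, among them Rab27b (7.49 CPM with PBS, 3.84 with IL-1β), Ccl3 (2.92 and 0.720) and S100a10 (39.7 and 20.1). In the test of the difference in response between LK and LSK cells, none of the other mast cell, basophil and eosinophil genes was called by edgeR (12, 14 and 10 tested), 3, 3 and 1 had an unadjusted p under 0.05, DESeq2 called 0, 2 and 0, and limma-voom none. Of 12 other eosinophil genes, 10 were tested in LK cells and 7 were called higher, with a list median of 2.49 beside -0.03 over all genes. They were the granule proteins Prg3 (log2 fold change 3.54), Ear1 (3.44), Ear2 (3.22) and Ear6 (3.96), the interleukin-5 receptor chain Il5ra (2.54), the surface lectin Siglecf (1.22) and the granulocyte transcription factor Cebpe (2.15). Prg3 stood at 5.03, 7.12 and 3.16 CPM with PBS and 68.6 and 51.5 with IL-1β. The Ear genes are near copies of each other and lose shared reads, and Ear10 and Ccr3, the eotaxin receptor, were at 3 counts or fewer in every LSK and LK library. Of 16 other basophil genes, 12 were tested and 8 called higher (median 1.71). These were the activating receptor Cd200r3 (3.08), Cyp11a1 (2.53), Hgf (1.88), Ifitm1 (2.64), Csf1 (2.23), the interleukin-3 receptor alpha chain Il3ra (0.79) and the beta chains Csf2rb (1.96) and Csf2rb2 (1.54). Of 20 other mast cell genes, 11 were tested and 4 called higher (median 0.73). These were Ctsg (2.13), Cd63 (2.18), Srgn (1.72) and Alox5 (1.38), which neutrophil progenitors also express. Of the mature mast cell proteases, Mcpt1, Mcpt9, Cma2, Tpsab1 and Tpsg1, with the receptor Mrgprb2, were at 3 counts or fewer in every LSK and LK library. Mcpt2 and Mcpt4 had more than that only in PBS replicate 3 of LSK cells (9 and 7 counts). The chymase Cma1 was seen in all these libraries, with 20 to 223 counts in LSK and 5 to 19 in LK cells.

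In LSK cells the medians of the other mast cell, basophil and eosinophil lists were 0.10, 0.66 and 0.83, with 12, 14 and 7 genes tested and none called by edgeR or limma-voom. There were 6, 7 and 3 of them at an unadjusted p under 0.05, and DESeq2 called 4, 4 and 2. The chymase Cma1, at 1.51, 3.64 and 5.24 CPM with PBS and 26.4 and 13.2 with IL-1β, had a log2 fold change of 2.55 that was not called (adjusted p = 0.0833). Of 14 genes of IgE receptor signalling, all tested, none was called by edgeR, DESeq2 or limma-voom in LSK cells (median -0.44, 2 at an unadjusted p under 0.05). In LK cells 2 of the 14, Plcg2 (1.24) and Vav1 (0.73), were called higher (median 0.29), beside 6.77% of all genes tested. Kit, the receptor of stem cell factor on which mast cells depend, had log2 fold changes of -0.60 in LSK and 0.09 in LK cells and was not called. Both populations were sorted for c-kit, the protein of Kit, so its RNA cannot show a change in cells outside that gate. Il1rl1, the interleukin-33 receptor of mast cells and basophils, was not called either, at 1.61 in LSK (adjusted p = 0.0775) and -0.13 in LK cells (0.745). Of 11 growth and cytokine receptors, 5 of 9 tested were called higher in LK cells (Il3ra, Csf2rb, Csf2rb2, Il5ra and Il1rap) and none of 10 by edgeR in LSK cells, where 6 had an unadjusted p under 0.05 and DESeq2 called 4.

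Of 15 transcription factors of these lineages, all tested, 5 were called higher in LK cells (Cebpa at 1.33, Cebpb at 1.51, Cebpe at 2.15, Spi1 at 1.35 and Bhlhe40 at 1.94). Another 4 were called lower (Gata1 at -0.88, Irf8 at -2.59, Tal1 at -0.70 and Zfpm1 at -1.16). Over all genes tested in LK cells, 6.77% were called higher and 9.34% in either direction. In LSK cells edgeR called 1 of the 15, Irf8, lower at -2.48, while 6 had an unadjusted p under 0.05, and DESeq2 called 4 and limma-voom none. In LK cells Gata2, which mast cells and basophils need, was at 150, 140 and 157 CPM with PBS and 234 and 148 with IL-1β, with overlap (log2 fold change 0.36, adjusted p = 0.263). Mitf differed by 0.10 (adjusted p = 0.891).

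**Figure D5:**
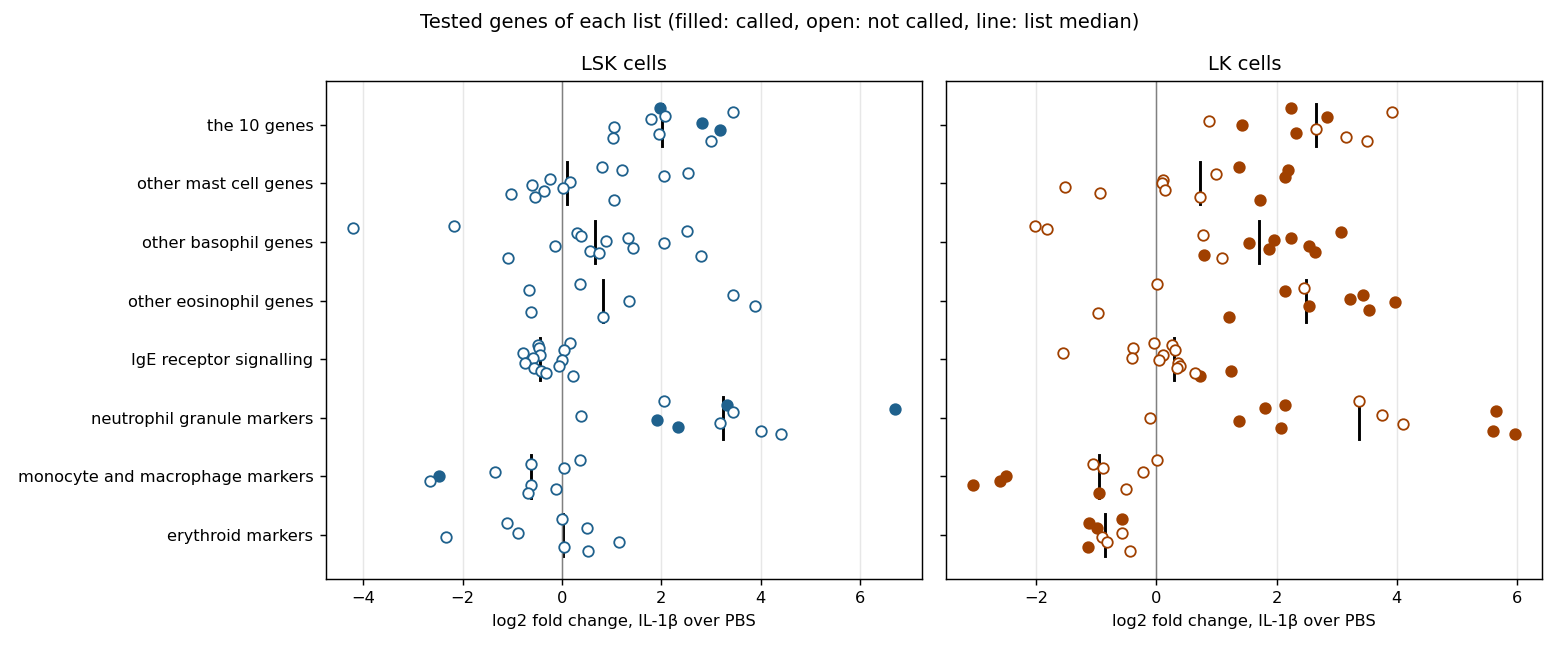
Log2 fold change with IL-1β over PBS of each tested gene in 8 gene lists, in LSK (left) and LK cells (right), with filled points for called genes, open points for others and a line at the list median. The 10 genes have medians of 2.02 and 2.66, the other eosinophil genes 0.83 and 2.49, and the neutrophil granule markers 3.25 and 3.38.

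Markers of other cells moved in the same libraries, where 0.632% of all genes tested were called in LSK and 9.34% in LK cells. Of the neutrophil granule markers, 4 of 10 tested rose in LSK cells (median 3.25) and 7 of 11 in LK cells (median 3.38). Their summed level was 2182 to 3171 CPM with PBS and 9763 and 11623 with IL-1β in LSK cells, and 4441 to 9609, and 18297 and 21424, in LK cells. Of the stem cell markers, 3 of 10, Hlf and Flt3 among them, fell in LSK cells, where the sum of all 10 was 1555 to 2083 CPM with PBS beside 1001 and 882 after IL-1β, and all 10 had a log2 fold change below 0. In LK cells 1 of 10, Flt3, fell, and the sum of 478 to 660 CPM with PBS overlapped the 541 and 451 CPM after IL-1β. Of the erythroid markers, 4 of 8 fell in LK cells, where their sum was 4605 to 6155 CPM with PBS and 2955 and 3304 with IL-1β, and none was called in LSK cells (1 by DESeq2, 2 at an unadjusted p under 0.05). Of the monocyte and macrophage markers, 4 of 9 tested fell in LK cells, where their sum was 212 to 319 CPM with PBS and 85.4 and 94.7 with IL-1β. In LSK cells 1 of 9, Irf8, fell, and the sum was 323 to 414 CPM with PBS beside 122 and 168 with IL-1β. Of the 10 NK and T cell markers, which bear on Gzmb, Gzma, Cd3d, Cd3e, Cd3g and Cd8a were at 3 counts or fewer in every LSK and LK library. The lineage antibodies of the sort included CD3e, CD4 and CD8. The NK genes Klrb1c, Klrd1 and Ncr1 reached 14, 8 and 7 counts in LSK libraries with PBS. In LSK cells 2 of the markers were tested, 1 with a log2 fold change above 0 (median -2.18), and edgeR called none. The summed level of the 10 markers was 98.1 to 108 CPM with PBS and 194 and 292 with IL-1β in LSK cells, and 53.2 to 103, and 241 and 284, in LK cells. Nearly all of this sum was 1 gene, Nkg7, which granulocyte progenitors also express, whose mean was 102 CPM (PBS) against 242 CPM (IL-1β) in LSK and 71.2 against 262 CPM in LK cells. It alone was tested in LK cells and was called higher (log2 fold change 1.88). The part of these cells in the results was not tested.

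In MSC the 10 genes were at or near 0, and none had enough counts to be tested, where 11.4% of 13239 genes were called. Tpsb2, Prss34 and Epx had 0 counts in each of the 4 libraries, and Cpa3, Fcer1a, Ms4a2, Hdc and Prg2 had at most 6. Mcpt8 had 2 and 6 counts with PBS and 21 and 6 with IL-1β, and Gzmb had no count in either PBS library and 27 and 5 with IL-1β. The summed level was 0.333 and 0.527 CPM with PBS and 2.0003 and 1.15 with IL-1β, beside 115 to 148 CPM in LSK cells with PBS. The cultures also held much RNA of monocyte and macrophage markers, which summed to 15355 and 11549 CPM with PBS and 31497 and 32399 with IL-1β. The mesenchymal markers summed to 2354 and 1264 CPM with PBS and 2562 and 2899 with IL-1β. Which cells of the cultures held the few counts of the members was not tested.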

How the data were processed

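Per gene and library, the authors deposited counts of read pairs. They trimmed the reads with fastp 0.20.0, aligned them with HISAT2 2.0.1 to GRCm38 and, per the file headers, counted read pairs with featureCounts 2.0.2 on Ensembl 100 genes, reverse-stranded and without normalization, where the methods name GenomicAlignments. Depth lay between 4393233 and 30871055 counted read pairs per library. Low counts limit Epx in LSK cells, Tpsb2, and every member in MSC. The floor of 3 counts per library covers counting error only, since PCR copies are not independent molecules.

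Symbols were taken from GENCODE M21, which named 55141 of 55487 identifiers. The test was edgeR 4.0.16 under R 4.3.3 (TMM after filterByExpr, robust glmQLFit and glmQLFTest), within LSK, LK or MSC for IL-1β against PBS, and over the 10 LSK and LK libraries for LK against LSK and the interaction. The standard error is the log2 fold change divided by the square root of F. The methods of the study set the thresholds of 0.05 and 0.5. FPKM used the gene lengths in the tables. All 10 members are named throughout, other genes as called members or defining markers of fixed lists or by likeness (Pearson r over 10 libraries, mean of at least 1 log2 CPM). The members and lists were chosen with earlier results of these data known. The tests were checked on simulated counts.

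Replicate numbers were used as the block for the LSK and LK libraries, though no label states that same-numbered libraries share an animal. Over 13839 genes the deviations of same-numbered libraries from their group means correlated at 0.211, 0.128 and 0.472 with PBS and 0.100 with IL-1β, the latter 2 pairs being mirror images. Differently numbered PBS libraries correlated at -0.381 to 0.162. LSK replicate 2 was closer to LK replicate 1 (0.162) than to LK replicate 2 (0.128), so the pairing is uncertain. Alternatives were DESeq2 1.42.0, limma-voom (limma 3.58.1), other size factors and filters, no fold threshold, the block, a joint fit, 1 treatment alone, and each library left out. Figures were drawn with matplotlib 3.10.9. A further IL-1β library of MSC named in a file header was not analysed here.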

Additional observations from a re-analysis of the deposited data

Results flagged for a closer look

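Counts of 2 members appeared in MSC, cells that entered no comparison of these genes because too few counts were present for the test. In both IL-1β libraries Mcpt8 and Gzmb had more than 3 counts and a higher CPM than in either PBS library. The mean was 0.609 CPM for Mcpt8 (21 and 6 counts, beside 2 and 6 counts or 0.333 and 0.452 CPM with PBS) and 0.663 CPM for Gzmb (27 and 5 counts, beside 0 and 0 with PBS). No group held 4 libraries, so single libraries were not tested for standing apart, and edgeR's interaction test called no member as differing in its response between LSK and LK cells (DESeq2 called 1, Hdc, and edgeR called Prss34 without LK PBS replicate 1, adjusted p = 0.0344).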

How the results depend on the processing

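In LSK cells 3 members were called with IL-1β, and 9 were with DESeq2, 7 with no filter on low counts, 5 with the replicate block, 5 in a fit joint to both populations and 0 to 5 with 1 library left out. In LK cells 4 were called, 8 with DESeq2, 8 in the joint fit and 1 to 5 with 1 library left out. In MSC none was called, 1 (Gzmb) with no filter and 0 to 1 with 1 library left out. For LK against LSK cells with PBS 4 were called, 8 with DESeq2, 10 with no filter, 7 with the replicate block and 4 to 6 with 1 library left out. With IL-1β 5 were called, 8 with no filter and 1 to 3 with 1 library left out. For the interaction 0 were called, 1 with DESeq2, 3 with no filter and 0 to 1 with 1 library left out. The PBS and IL-1β mice share only a number: the deviations of same-numbered libraries correlated at -0.10 to 0.13, and the block moved the calls from 3 to 5 in LSK and from 4 to 6 in LK cells. In MSC no paired analysis was possible because the groups share 1 number only. The number of all genes called moved with the setting too, in LSK cells from 83 to as many as 1228. Counts of members under different settings are therefore not comparable shares.

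Every member kept a log2 fold change above 0 with IL-1β in all alternatives, in LSK cells (10 members) and in LK cells (9). Signs turned for Gzmb in LK against LSK cells with IL-1β, to -0.063 with limma-voom, -0.034 with upper-quartile factors and -0.069 with the replicate block, and its range with 1 library left out was -0.71 to 0.63. In the interaction, Epx turned to -0.023 with limma-voom and ranged from -1.57 to 1.36 with 1 library left out, and Cpa3 from -0.44 to 0.75. Over all genes, 83 were called in LSK cells (3 to 1228 across the alternatives), 1199 in LK cells (66 to 2409), 1515 in MSC (38 to 3819), 4394 (2741 to 4985) and 609 (89 to 1410) for LK against LSK cells with PBS and IL-1β, and 4 (0 to 398) for the interaction. The causes were not tested, beyond fewer libraries or other genes entering a fit. Where an arm keeps 1 library, that library is assumed to vary like the others. Without TMM the summed CPM of the members stayed within 1 SD in each group. Of the 10 genes most like the members, 9 were among the 10 with a prior count of 0.5.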
